A study of Mus musculus with 9 samples.

Results

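Transcript levels of 10 cytokine genes that mast cells and other myeloid cells are known to use, Il4, Il13, Il6, Tnf, Il1a, Il1b, Il1rn, Il10, Csf1 and Csf2, were followed in mouse bone marrow cells carrying 1 or both of 2 leukaemia oncogenes. The members were taken by gene symbol from the authors' gene tables, each symbol matching a single gene among the 55274 gene identifiers of the tables. Of the 10 members, 7 reached 1 FPKM or more in 3 or more of the 9 libraries and were tested among 13493 such genes, while Il1a, Il10 and Csf2 did not. FPKM is the fragments of a gene scaled by its transcript length and by the mapped fragments of the library. It corrects for transcript length, so that levels of genes may be set side by side within a library. A different RNA make-up between libraries is not corrected, and the summed FPKM ran from 536188 to 675144. Fold changes were therefore also fitted after median-ratio scaling and quantile normalization.

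The cells came from young adult female C57BL/6J mice given 5-fluorouracil at 150 mg/kg 4 days before harvest, a treatment that depletes dividing cells and leaves marrow rich in stem and progenitor cells. The marrow was kept for 48 h in medium with 10 ng/mL human IL-6, 6 ng/mL mouse IL-3 and 20 ng/mL mouse stem cell factor (SCF) before retroviral transduction, and the same 3 cytokines were in the growth medium of every group. The groups were NRASG12D (the oncogenic RAS mutant, marked with a blue fluorescent protein), NUP98-NSD1 (a fusion of a nuclear pore gene with a histone methyltransferase gene, marked with a green fluorescent protein) and NUP98-NSD1+NRASG12D (both vectors), with 3 libraries each. Cells were expanded and sorted on the fluorescent protein alone, so that any cell type able to grow in the medium could be present, and the murine stem cell virus vectors drive their insert in all transduced cells. No untransduced or empty-vector library was analysed here, and the labels do not say whether the replicates were separate cultures, so p-values measure the spread between these libraries, which may be technical.

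The depth was estimated from the steps between low FPKM values, at 22.4 to 35.3 mapped fragments per library in units of 1000000. Nras read 348 to 479 FPKM in the NRASG12D libraries, 47.7 to 51.2 in the NUP98-NSD1 libraries and 245 to 701 in the NUP98-NSD1+NRASG12D libraries, higher in both groups that the labels give the NRASG12D vector. Nup98 lay between 9.12 and 11.1, between 18.2 and 19.0 and between 11.9 and 20.2 FPKM in the same order, and Nsd1 lay between 9.98 and 16.2 FPKM over all libraries, without a separation of the groups. All 11 mast cell markers were measured, and they summed to 36207 to 38347 FPKM with NRASG12D, 29118 to 35349 with NUP98-NSD1 and 785 to 4724 with both oncogenes. Cpa3, the mast cell carboxypeptidase, is listed at 0 in all 3 NRASG12D libraries, where the other 10 markers summed to that whole amount, and without it the sums of the other groups were 15705 to 20970 and 505 to 2903 FPKM. The 7 monocyte and macrophage markers summed to 47.4 to 131 FPKM with NRASG12D, 1281 to 1792 with NUP98-NSD1 and 3828 to 10451 with both. The 8 neutrophil markers summed to 0.6 to 8.37, 647 to 1150 and 2908 to 16254 FPKM, with Ltf and Camp at 0 in every NRASG12D library. The T cell, B cell and natural killer cell lists each stayed at or below 1.1 FPKM in sum. In such bulk RNA, fewer cells of a type and less RNA per cell cannot be told apart.

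Mast cells, armed by the IgE receptor and by Kit, release preformed granules and then secrete newly transcribed cytokines, among them IL-4 and IL-13, which share the IL-4 receptor alpha chain, and IL-6 and TNF. Monocytes, macrophages and neutrophils make IL-1 alpha and IL-1 beta, and the same cells make the IL-1 receptor antagonist encoded by Il1rn, which occupies the receptor without signalling. Csf1 encodes the growth factor of macrophages, Csf2 encodes granulocyte-macrophage colony-stimulating factor (GM-CSF), and IL-10 restrains inflammatory cytokine production. Transcription of these genes is classically controlled by NF-kB, C/EBP, AP-1, NFAT, GATA factors and PU.1, and the mRNAs of many of them, Tnf and Csf2 among the best known, are kept short-lived by AU-rich elements in the 3′ UTR to which tristetraprolin (Zfp36) and related proteins bind.

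Promoter sequences are shown for the genes that fell with both oncogenes against NRASG12D alone (Il6, Il4, Il13), the genes that rose (Il1rn, Csf1, Il1b) and Tnf, which was highest with NUP98-NSD1 alone. RefSeq (GRCm38.p6) gives promoter windows for 9 of the 10 members. Each line holds the 250 bases before a transcript start, 5′ to 3′ on the gene's strand, with matches on either strand in capitals to the motif named NF-kB and to TTGCNNAA for C/EBP, TGANTCA for AP-1, GGAAAAT for NFAT, AGATAA for GATA factors, GAGGAA for PU.1 and TATAAA for the TATA box.
Il6, chr5:30012864-30013113, plus strand: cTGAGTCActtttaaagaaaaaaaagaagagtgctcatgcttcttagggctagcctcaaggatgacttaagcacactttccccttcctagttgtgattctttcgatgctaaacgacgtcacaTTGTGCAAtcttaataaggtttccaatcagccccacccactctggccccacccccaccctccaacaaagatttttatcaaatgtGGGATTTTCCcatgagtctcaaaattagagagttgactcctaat
Il4, second of 2 windows, chr11:53618666-53618915, minus strand: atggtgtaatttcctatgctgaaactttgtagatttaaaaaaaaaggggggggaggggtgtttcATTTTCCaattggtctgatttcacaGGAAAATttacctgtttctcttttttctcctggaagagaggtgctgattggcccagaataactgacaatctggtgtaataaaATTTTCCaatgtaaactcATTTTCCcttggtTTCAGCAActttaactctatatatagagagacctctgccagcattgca
Il13, chr11:53634703-53634952, minus strand: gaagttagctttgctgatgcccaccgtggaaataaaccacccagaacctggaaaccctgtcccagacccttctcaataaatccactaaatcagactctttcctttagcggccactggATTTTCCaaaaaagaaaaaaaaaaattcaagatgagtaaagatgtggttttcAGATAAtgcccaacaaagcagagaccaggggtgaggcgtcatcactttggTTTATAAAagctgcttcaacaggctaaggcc
Tnf, chr17:35202008-35202257, minus strand: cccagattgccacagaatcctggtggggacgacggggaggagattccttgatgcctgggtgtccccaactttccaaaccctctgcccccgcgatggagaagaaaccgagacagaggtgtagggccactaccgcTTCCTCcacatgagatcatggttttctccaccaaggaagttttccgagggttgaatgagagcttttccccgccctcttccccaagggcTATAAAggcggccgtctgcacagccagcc
Il1rn, first of 3 windows, chr2:24336610-24336859, plus strand: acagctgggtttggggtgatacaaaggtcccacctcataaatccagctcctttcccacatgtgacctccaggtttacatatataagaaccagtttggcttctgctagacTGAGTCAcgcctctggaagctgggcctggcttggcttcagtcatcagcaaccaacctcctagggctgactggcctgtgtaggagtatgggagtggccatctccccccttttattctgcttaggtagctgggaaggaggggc
Il1b, chr2:129371140-129371389, minus strand: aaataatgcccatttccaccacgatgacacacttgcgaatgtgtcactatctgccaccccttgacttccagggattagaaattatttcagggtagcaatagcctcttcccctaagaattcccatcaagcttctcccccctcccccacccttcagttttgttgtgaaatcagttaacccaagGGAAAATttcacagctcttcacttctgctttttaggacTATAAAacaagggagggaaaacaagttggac
Csf1, chr3:107760470-107760719, minus strand: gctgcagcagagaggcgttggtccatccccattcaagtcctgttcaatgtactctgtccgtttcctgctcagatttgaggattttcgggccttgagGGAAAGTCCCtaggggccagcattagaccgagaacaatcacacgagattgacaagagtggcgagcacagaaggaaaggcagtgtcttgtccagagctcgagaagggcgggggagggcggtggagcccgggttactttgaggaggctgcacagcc

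The Il6 window held 4 kinds of motif, an NF-kB match 44 bases before the start that overlaps an NFAT match, a C/EBP match at 128 bases and an AP-1 match at 249 bases. The Il4 window held 4 NFAT matches, at 61, 79, 161 and 186 bases, and a C/EBP match at 48 bases. An NFAT match also stood in the Il13 window, with a GATA match and, on both strands, a TATA match that overlap each other 29 to 31 bases before the start. The Il1b window held an NFAT match 69 bases and a TATA match 31 bases before the start. NFAT matches thus stood in windows of 3 genes that fell and of Il1b, which rose, and in 4.16% of 32851 RefSeq windows of this length. The first Il4 window and the Il1rn windows not shown held none of the motifs. The Tnf window held PU.1 and TATA matches, the first Il1rn window an AP-1 match and the Csf1 window an NF-kB match, and these motifs occur in 23.3%, 12.4%, 6.75% and 3.9% of all windows respectively. C/EBP matches occur in 9.56% and GATA matches in 9.99% of windows. A match describes letters and is neither a binding site nor a cause.

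The 3′ UTR of most members is rich in ATTTA, the core of the AU-rich element, and the densest 30-base stretches of 4 members are shown with ATTTA in capitals (GRCm38, GENCODE M21 transcripts).
Csf2, chr11:54247329-54247358, minus strand: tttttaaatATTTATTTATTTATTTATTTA
Tnf, chr17:35199679-35199708, minus strand: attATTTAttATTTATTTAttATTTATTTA
Il1b, chr2:129364808-129364837, minus strand: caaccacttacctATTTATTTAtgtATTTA
Il6, chr5:30019677-30019706, plus strand: tttaattatttttaATTTAttgataATTTA

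Csf2 carried 9 copies (28.4 per kilobase of 3′ UTR), Tnf 8 (10.5), Il6 6 (14.1), Il10 6 (8.5), Il1b 4 (8.71) and Il4 2 (19.2 per kilobase, in a 3′ UTR of 104 bases). Il13 held 3 copies, Il1a 3 and Csf1 4, at 4.05, 2.72 and 1.89 per kilobase. Il1rn held none in 1306 bases. The median over 17373 genes with a 3′ UTR of at least 200 bases was 2 copies and 1.49 per kilobase. Il1rn, the member with the highest level of all, had no copy, and Csf2, at the lowest levels, had the densest. The members between them did not keep this order. Il6, at 14.1 per kilobase, was the most abundant member in both groups with a single oncogene, while Il1a, at 2.72 per kilobase, was among the lowest there. A link between copies and level was not tested.

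The levels of the 10 genes spanned from 0 to 136 FPKM. In NRASG12D the order by mean was Il6, Csf1, Tnf, Il4, Il13, Il1b, Il1rn and Il1a, with Il10 and Csf2 at 0. In NUP98-NSD1 it was Il6, Tnf, Csf1, Il1rn, Il1b, Il13, Il4, Il1a, Il10 and Csf2, and in NUP98-NSD1+NRASG12D it was Il1rn, Csf1, Tnf, Il1b, Il1a, Il6, Il4, Il13, Il10 and Csf2. The neighbours in these orders whose libraries overlapped were Il4 with Il13 and Il1rn with both Il1b and Il1a in NRASG12D, and Csf1 with Il1rn and Il13 with both Il1b and Il4 in NUP98-NSD1. With both oncogenes every neighbouring pair overlapped except Csf1 above Tnf. Il6 made up 50.6% to 57.6% of the summed FPKM of the 10 genes with NRASG12D, 32.1% to 40.4% with NUP98-NSD1 and 0.277% to 2.64% with both. Il1rn ran the other way, from at most 0.916% through 10.7% to 16.4% to 31.8% to 61.6%, and the sum itself was 53.7 to 62.2, 91.0 to 101 and 34.7 to 221 FPKM.

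**Figure D1:**
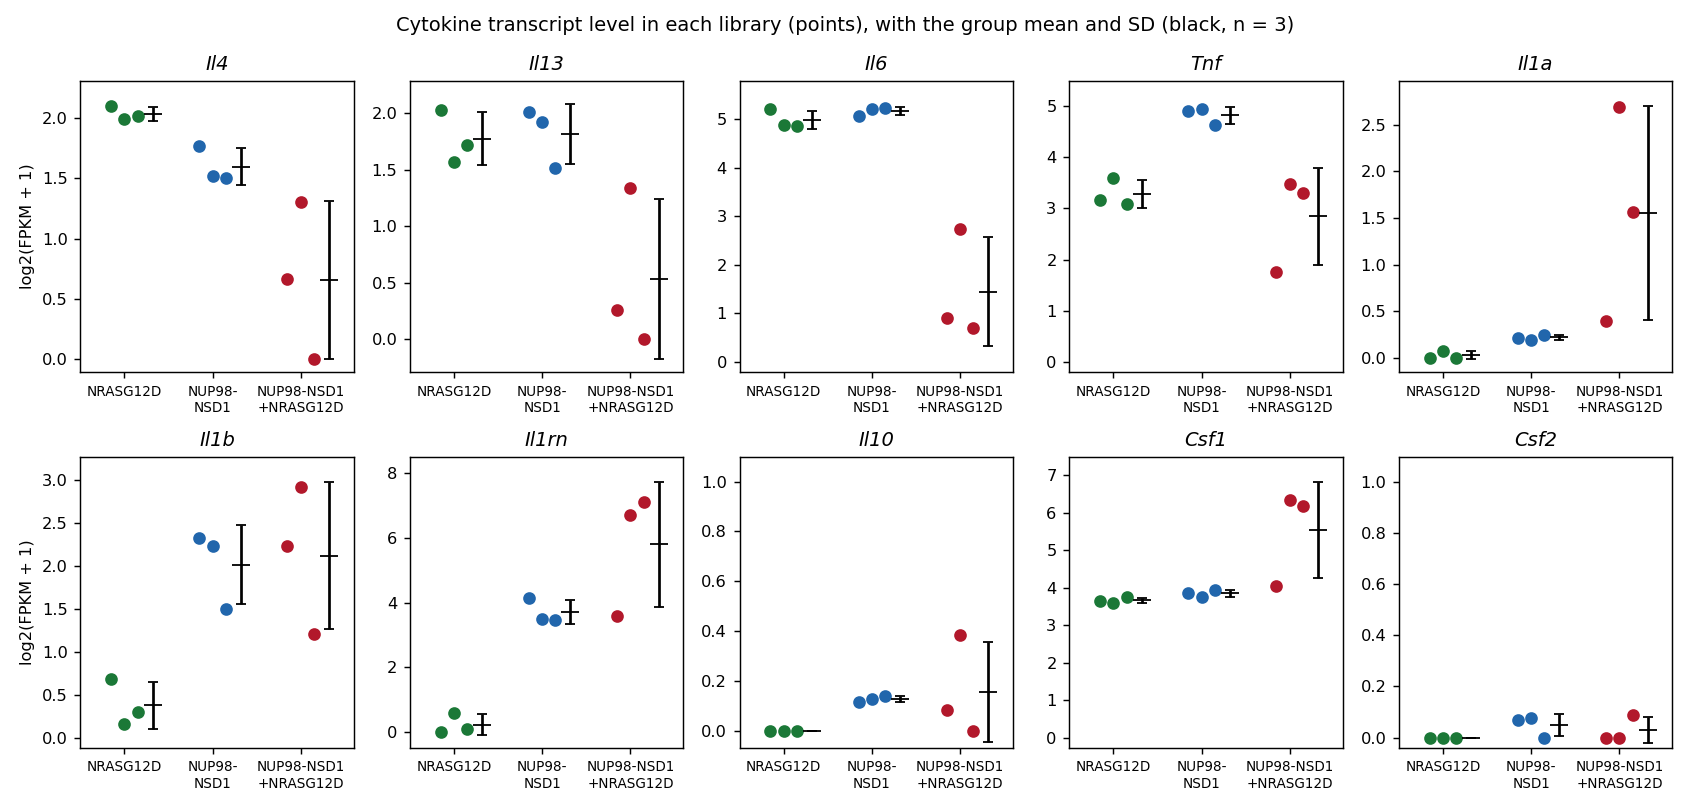
Level of each of the 10 cytokine genes as log2(FPKM + 1) in each library, grouped by oncogene on the horizontal axis, with the group mean and SD (n = 3) in black and a vertical scale of its own in each panel. Il6, Il4 and Il13 sit lowest in the 3 NUP98-NSD1+NRASG12D libraries, Il1rn is near 0 in NRASG12D only, and Il10 and Csf2 stay below 0.31 FPKM in all 9 libraries.

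**Figure D2:**
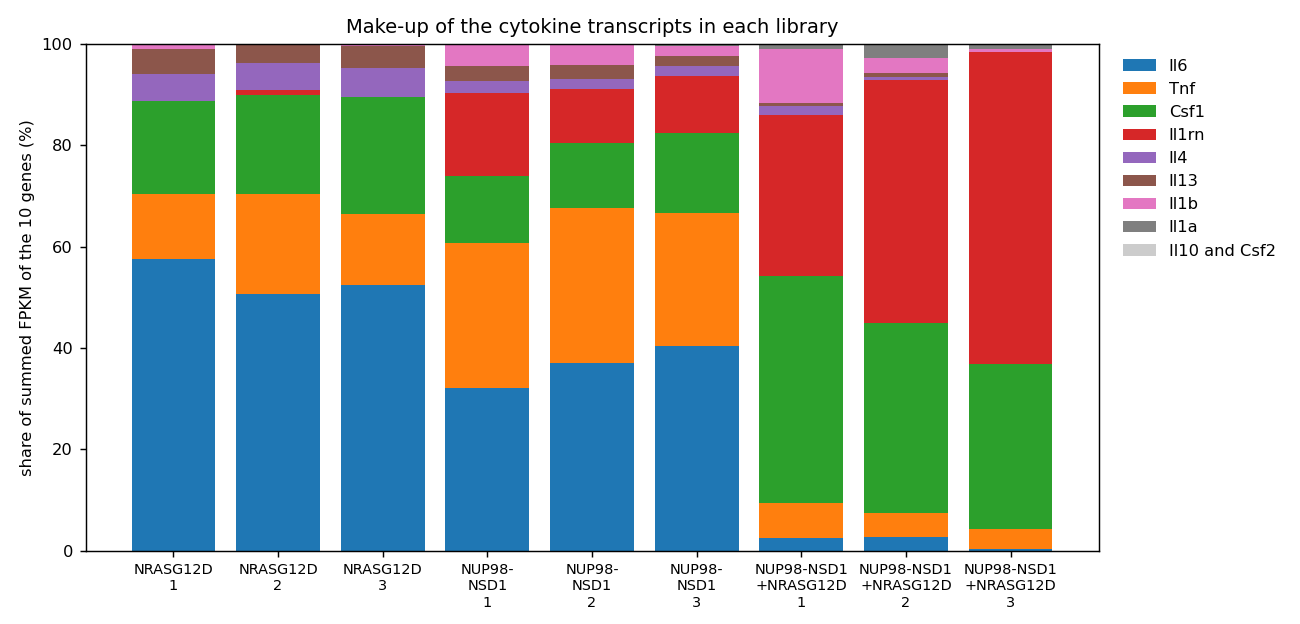
Share of each cytokine gene in the summed FPKM of the 10 genes, in percent, 1 bar per library. Il6 is the largest share in all 6 libraries with a single oncogene, and Csf1 and Il1rn together fill most of each bar with both oncogenes.

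Il4 (ENSMUSG00000000869, chr11:53602982-53618669, minus strand) and Il13 (ENSMUSG00000020383, chr11:53631324-53634702, minus strand) are neighbours in the type 2 cytokine locus. Il4 read 3.28, 2.97 and 3.05 FPKM in the NRASG12D libraries, 2.41, 1.87 and 1.83 in the NUP98-NSD1 libraries and 0.587, 1.47 and 0 in the NUP98-NSD1+NRASG12D libraries. The 3 groups did not overlap in any pair, and the lowest value rested on no fragment where 3 fragments would have read 0.264 FPKM. Il4 was 1.52-fold lower with NUP98-NSD1 than with NRASG12D, a log2 fold change of -0.44 ± 0.12 (SE, limma adjusted p = 0.0224) where the median gene moved by 0.27. That call was lost without NRASG12D replicate 1 or 3 or NUP98-NSD1 replicate 2 (adjusted p 0.0582 to 0.0796), and it held in 9 of 14 alternatives. With both oncogenes Il4 was lower than with NRASG12D alone by -1.38 ± 0.32 (adjusted p = 0.0155 by limma), a call lost without NRASG12D replicate 1 or 3 (0.0548 and 0.0536) and kept in 10 of 14 alternatives. Against NUP98-NSD1 the difference was -0.94 (95% interval -1.71 to -0.17, limma adjusted p = 0.131), and without NUP98-NSD1+NRASG12D replicate 2 it reached -1.26 with an adjusted p of 0.0398.

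Il13 read 3.09, 1.97 and 2.30 FPKM with NRASG12D, 3.01, 2.78 and 1.85 with NUP98-NSD1 and 0.193, 1.52 and 0 with both. The groups with a single oncogene overlapped, with a difference of 0.04 (95% interval -0.40 to 0.47, limma adjusted p = 0.881), while all 3 libraries with both oncogenes lay below all others. Against NRASG12D the fall was -1.24 ± 0.36 (limma adjusted p = 0.0323). It passed the threshold in only 1 of 6 fits that each left out 1 library, the one without NUP98-NSD1+NRASG12D replicate 2, and the adjusted p of the other 5 ran from 0.0668 to 0.103. Against NUP98-NSD1 the difference was -1.28 (95% interval -2.14 to -0.42, adjusted p = 0.0764), and it was called at 0.0124 without NUP98-NSD1+NRASG12D replicate 2.

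Il6 (ENSMUSG00000025746, chr5:30013114-30019981, plus strand), the acute-phase cytokine whose protein was also supplied in the medium in its human form, was the most abundant member in both groups with a single oncogene. Its level was 35.9, 28.5 and 28.2 FPKM with NRASG12D, 32.6, 35.9 and 36.8 with NUP98-NSD1 and 0.871, 5.67 and 0.613 with both. The first 2 groups overlapped and differed by 0.18 (95% interval -0.08 to 0.45, limma adjusted p = 0.209). The libraries with both oncogenes lay far below, at a mean of 2.39 ± 2.85 FPKM (SD, n = 3) against 30.9 ± 4.34 and 35.1 ± 2.23. Il6 was 12.9-fold lower with both oncogenes than with NRASG12D alone (log2 fold change -3.54 ± 0.52, limma adjusted p = 0.00229) and 14.7-fold lower than with NUP98-NSD1 alone (-3.73 ± 0.52, limma adjusted p = 0.0107). Both folds depended on NUP98-NSD1+NRASG12D replicate 2, without which the ratios of the means were 41.6 and 47.3. The first call held in all 14 alternatives, and the second was lost without NUP98-NSD1 replicate 3 (0.0517) and with no filter on low values (0.0687).

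Il4, Il13 and Il6 were highest in the same library of the group with both oncogenes, replicate 2, which also had the highest mast cell marker sum of that group. Per 1000 FPKM of the 10 mast cell markers other than Cpa3, Il6 read 0.991, 0.744 and 0.752 in NRASG12D, 2.07, 2.15 and 1.75 in NUP98-NSD1 and 1.29, 1.95 and 1.21 in NUP98-NSD1+NRASG12D, so that on this scale the libraries with both oncogenes lay above those with NRASG12D. Il4 on the same scale read 0.0775 to 0.0906 in NRASG12D, 0.0871 to 0.154 in NUP98-NSD1 and 0.871, 0.506 and 0 in replicates 1 to 3 of NUP98-NSD1+NRASG12D. Il13 read 0.0514 to 0.0852, 0.088 to 0.192 and 0.286, 0.525 and 0 in the same order. The part of the mast cell markers in these results was not tested.

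**Figure D3:**
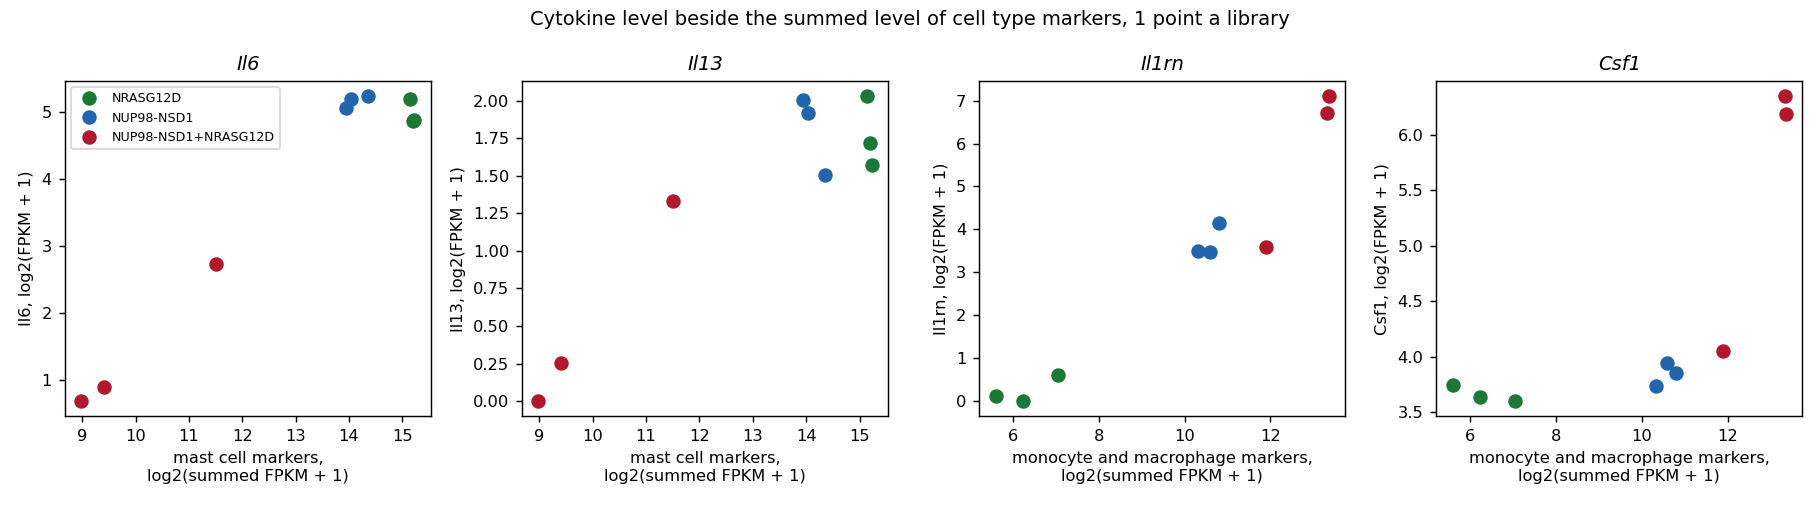
Level of Il6, Il13, Il1rn and Csf1 on the vertical axes, as log2(FPKM + 1), beside the summed level of 10 mast cell markers (Cpa3 left out) or 7 monocyte and macrophage markers on the horizontal axes, as log2(summed FPKM + 1), 1 point per library. The 3 libraries with both oncogenes are lowest in mast cell markers, Il6 and Il13, and their replicates 2 and 3 are highest in monocyte markers, Il1rn and Csf1.

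Tnf (ENSMUSG00000024401, chr17:35199381-35202007, minus strand), the trigger of inflammatory signalling through its 2 receptors, peaked with NUP98-NSD1 alone. It read 7.99, 11.1 and 7.48 FPKM with NRASG12D, 29, 29.7 and 23.9 with NUP98-NSD1 and 2.37, 10.2 and 8.83 with both. The NUP98-NSD1 libraries stood above all the others, and the other groups overlapped. Tnf was 3.11-fold higher with NUP98-NSD1 than with NRASG12D (log2 fold change 1.54 ± 0.16, limma adjusted p = 0.000823), in all 14 alternatives. It was 3.86-fold lower with both oncogenes than with NUP98-NSD1 alone (-1.98 ± 0.45, adjusted p = 0.0417 by limma), but that call was lost without any 1 of the NUP98-NSD1 replicates (0.117, 0.139 and 0.127), without NUP98-NSD1+NRASG12D replicate 3 (0.0795) and in 5 other alternatives. Between both oncogenes and NRASG12D alone the difference was -0.44 (95% interval -1.51 to 0.64, adjusted p = 0.467). The ratio of Il6 to Tnf was 2.58 to 4.49 with NRASG12D, 1.12 to 1.54 with NUP98-NSD1 and 0.0694 to 0.556 with both, with no overlap between groups. Per 1000 FPKM of the mast cell markers other than Cpa3, Tnf read 0.199 to 0.289, 1.14 to 1.84 and 3.51 to 17.5 in the same order. Per 1000 FPKM of the monocyte markers it read 84.6 to 158, 15.4 to 23.2 and 0.618 to 0.991. Neither scale was highest with NUP98-NSD1 alone. The part of the markers in the Tnf result was not tested.

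The 3 IL-1 genes lie on chromosome 2, Il1a (ENSMUSG00000027399, chr2:129299610-129309972) and Il1b (ENSMUSG00000027398, chr2:129364570-129371139) on the minus strand and Il1rn (ENSMUSG00000026981, chr2:24336853-24351494) on the plus strand. Il1b, which inflammasomes cleave to its active form, read 0.599, 0.112 and 0.228 FPKM with NRASG12D, 4.02, 3.68 and 1.81 with NUP98-NSD1 and 3.68, 6.54 and 1.31 with both. All 6 libraries with the fusion lay above the 3 without it, and only those with the fusion reached the 1 FPKM of the filter. Il1b was 10.1-fold higher with NUP98-NSD1 than with NRASG12D (log2 fold change 1.64 ± 0.25, limma adjusted p = 0.00277, in all 14 alternatives) and 12.3-fold higher with both oncogenes (1.74 ± 0.42, limma adjusted p = 0.0175), the latter call being lost without NRASG12D replicate 2 or 3 (0.0622 each) and with no filter on low values (0.072). These folds depended on NRASG12D replicate 1, without which the ratios of the means were 18.6 and 22.6, and the second was 7.98 without NUP98-NSD1+NRASG12D replicate 2. The groups with the fusion differed by 0.10 (95% interval -0.97 to 1.17, adjusted p = 0.941). In the NRASG12D libraries its opposite-strand neighbour Il1bos read 0.449 to 0.643 FPKM, and without strand information the reads of the pair cannot be told apart at such levels.

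Il1a, the alarmin form, was below or near the level of 3 fragments (0.0456 to 0.0719 FPKM) in NRASG12D at 6.77e-08, 0.0536 and 0 FPKM, and read 0.160, 0.140 and 0.187 with NUP98-NSD1, about 7 to 9 fragments each. With both oncogenes it read 0.316, 5.46 and 1.97 FPKM, about 17, 248 and 84 fragments. These libraries all lay above the NUP98-NSD1 libraries, by 15.9-fold in the mean and by 7.03-fold without NUP98-NSD1+NRASG12D replicate 2. For the 3 libraries of each group an exact permutation test gives p = 0.1 (two-sided), the smallest that 3 libraries against 3 allow. The gene did not pass the filter on low values, and with the filter at 0.1 FPKM its limma adjusted p was 0.0349, 0.0679 and 0.208 in the 3 comparisons. Gm14023 on the opposite strand reached 0.824 FPKM in the library where Il1a was highest.

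Il1rn had the widest range of all members, and only libraries with the fusion reached the 1 FPKM of the filter. It read 0, 0.516 and 0.0804 FPKM with NRASG12D, 16.7, 10.4 and 10.1 with NUP98-NSD1 and 11, 103 and 136 with both, so that the libraries with the fusion lay above those without it and 1 of the 3 with both oncogenes lay within the NUP98-NSD1 range. The log2 fold change was 3.47 ± 0.24 for NUP98-NSD1 against NRASG12D (limma adjusted p = 0.00018) and 5.56 ± 0.86 for both against NRASG12D (limma adjusted p = 0.00296), each in all 14 alternatives. Between the groups with the fusion it was 2.09 (95% interval 0.02 to 4.15, limma adjusted p = 0.199), and without NUP98-NSD1+NRASG12D replicate 1 it was 3.19 with an adjusted p of 0.00564. NRASG12D replicate 2, the highest of its group, also had the highest sums of monocyte (131 FPKM) and neutrophil markers (8.37 FPKM) of its group. The antagonist exceeded its agonists in every library with the fusion, with a ratio of Il1rn to the sum of Il1a and Il1b of 3.99, 2.71 and 5.07 in NUP98-NSD1 and 2.76, 8.6 and 41.5 in NUP98-NSD1+NRASG12D, against 0, 3.12 and 0.352 in NRASG12D.

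Csf1 (ENSMUSG00000014599, chr3:107741048-107760469, minus strand) was steady in both groups with a single oncogene, at 11.4, 11.1 and 12.4 FPKM and 13.4, 12.4 and 14.4 FPKM, a difference of 0.19 (95% interval -0.04 to 0.41, limma adjusted p = 0.144). With both oncogenes it read 15.6, 80.5 and 72.1 FPKM, above all 6 other libraries, with replicate 1 close to them and replicates 2 and 3 well apart. The mean of 56.1 ± 35.3 FPKM (SD, n = 3) was 4.81-fold that of NRASG12D (log2 fold change 1.87 ± 0.58, limma adjusted p = 0.0402) and 4.19-fold that of NUP98-NSD1 (1.69, 95% interval 0.31 to 3.06, limma adjusted p = 0.129). The first call held in 5 of 14 alternatives and in 1 of 6 fits that left out a library, the one without NUP98-NSD1+NRASG12D replicate 1, the adjusted p of the other 5 running from 0.0939 to 0.115, and it was lost after median-ratio scaling and quantile normalization (0.0891 and 0.0808). The second difference was called without that same replicate, at 2.43 and an adjusted p of 0.00407.

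Beside the Il1rn and Csf1 results, NUP98-NSD1+NRASG12D replicate 1 had a monocyte marker sum of 3828 FPKM where replicates 2 and 3 had 10281 and 10451. Per 1000 FPKM of the monocyte markers, Il1rn read 0, 3.94 and 1.7 in NRASG12D, 6.56 to 9.3 in NUP98-NSD1 and 2.88, 10.0 and 13 in NUP98-NSD1+NRASG12D. Csf1 read 84.8 to 262, then 7.5 to 9.64, then 4.07, 7.83 and 6.9 in the same order. On this scale the fusion groups overlapped for both genes, and Il1rn in NUP98-NSD1+NRASG12D replicate 1 lay within the NRASG12D range. Il1b read 8.07, 0.854 and 4.82, then 2.24, 2.87 and 1.17, then 0.961, 0.636 and 0.126. On this scale the libraries with the fusion thus no longer lay above those with NRASG12D for Il1b. The part of the monocyte markers in these results was not tested.

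Il10 (ENSMUSG00000016529, chr1:131019845-131024974, plus strand) and Csf2 (ENSMUSG00000018916, chr11:54247271-54249667, minus strand) were hardly transcribed. Il10 was listed at 0 in every NRASG12D library, rested on about 3 fragments in each NUP98-NSD1 library (0.0839, 0.0936 and 0.103 FPKM) and on about 2, 9 and 0 fragments with both oncogenes (0.0584, 0.304 and 0 FPKM). Csf2 rested on at most 1 fragment in any library, where 3 fragments would have read 0.123 to 0.194 FPKM, so no level of Csf2 could be compared at this depth. For Il10, NUP98-NSD1+NRASG12D replicate 2 alone stood above the level of 3 fragments. Without the filter on low values limma called Il10 between NUP98-NSD1 and NRASG12D (adjusted p = 0.0121), where all 6 libraries lay at or below that level.

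**Figure D4:**
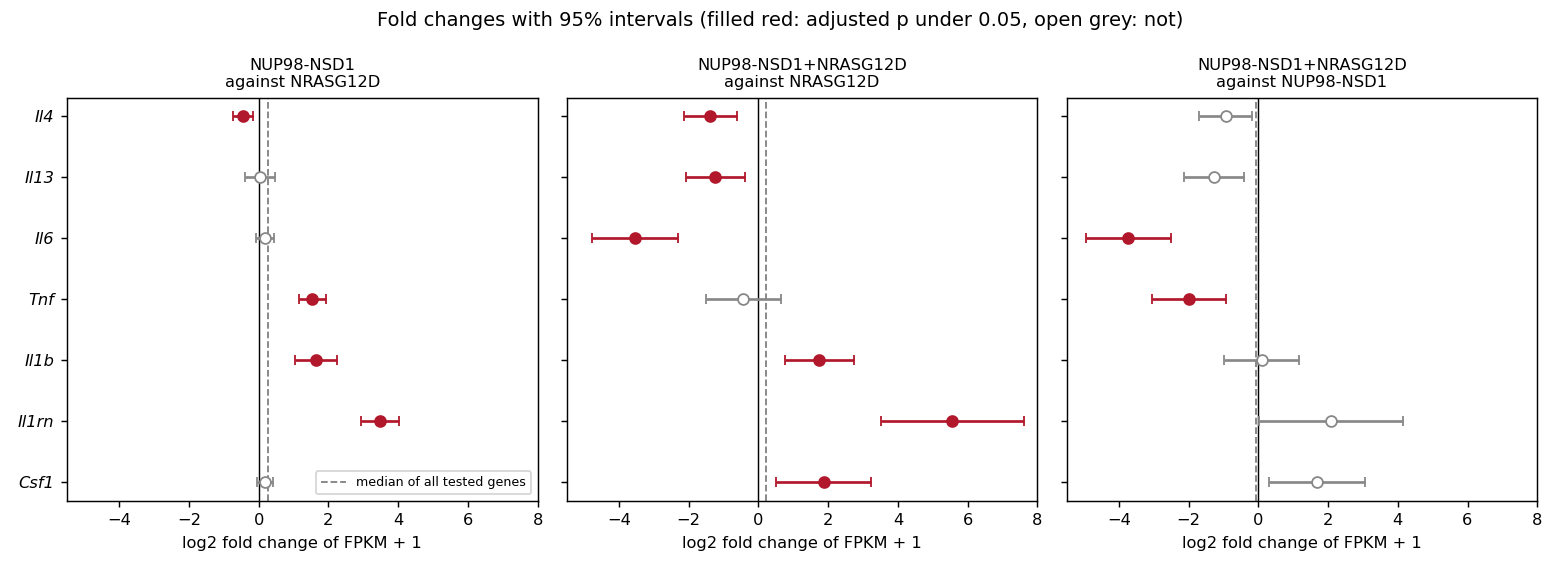
Log2 fold change of FPKM + 1 for the 7 tested cytokine genes in the 3 comparisons, with 95% intervals from limma. Filled red marks an adjusted p under 0.05, open grey marks the others, the solid line stands at 0 and the dashed line at the median of all tested genes. Il6 lies furthest below 0 in both comparisons of the group with both oncogenes, and Il1rn lies furthest above 0 in all 3.

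Counted over the members, 4 of the 7 tested changed between NUP98-NSD1 and NRASG12D, 3 higher and 1 lower, where 52.1% of all tested genes were called (42.2% higher and 9.98% lower). Between both oncogenes and NRASG12D alone 6 of 7 changed, 3 in each direction, where 38.3% of all genes were called (24.2% higher and 14.1% lower). Between both oncogenes and NUP98-NSD1 alone 2 of 7 changed, both lower, where 8.61% of all genes were called (2.3% higher and 6.31% lower). The groups did not overlap for 4, 6 and 5 of the 7 tested members in turn, against 64.2%, 58.6% and 31.4% of all tested genes. The split of all calls depended on scaling, since 5689 of 7036 were higher in the first comparison as deposited and 3059 of 6205 after median-ratio scaling, and 3266 of 5173 against 2155 of 5219 after quantile normalization in the second. The median gene moved by 0.27, 0.23 and -0.06 on the log2 scale, and the differences of Il6, Il13 and Csf1 between the groups with a single oncogene, all smaller than the first shift, changed sign after either scaling. The comparisons share libraries in pairs, so their counts are not independent. Il1b and Il1rn, both called higher against NRASG12D, read at most 0.599 and 0.516 FPKM with NRASG12D. They passed the filter only through libraries with the fusion, so that their being tested and called higher there is partly set by the filter.

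The levels of the 7 tested members over the 9 libraries fell into a few patterns, given as Pearson correlations of log2(FPKM + 1) and without a test, since the 3 groups dominate them. Il4, Il13 and Il6 ran together (0.91 to 0.95), Il1rn ran with Csf1 (0.84) and with Il1b (0.72), and Tnf was closest to Il6 (0.65). Among all tested genes, Il6 was most like Slc45a3 (0.994) and Rgs1 (0.993), the latter a regulator of G protein signalling. Slc45a3 read 174, 157 and 169 FPKM with NRASG12D, 126, 124 and 154 with NUP98-NSD1 and 2.45, 14.4 and 2.00 with both. Il4 was most like Mllt6 and Zfp945 (0.987 each), and Il13 most like Gm5733 (0.982) and Rsrp1 (0.979). Tnf was most like the histone genes Hist2h2aa1 (0.944) and Hist2h2aa2 (0.936), near-identical copies whose reads may be split. Il1b was most like Tspoap1 (0.976) and Ptov1 (0.973), Il1rn most like Bcl2a1a (0.998), which has close paralogues, and Fam20c (0.995), and Csf1 most like Sh3bgrl2 and Abcc3 (0.991 each).

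Of 17 receptor and signal chains of the 10 cytokines, 16 were tested, and 9 were higher and 4 lower with NUP98-NSD1 than with NRASG12D, with a median log2 fold change of 1.35 against 0.27 for all genes (9 higher and 6 lower after median-ratio scaling, 8 and 6 after quantile normalization). Of all tested genes 42.2% were called higher and 9.98% lower in this comparison. Csf1r, the receptor of the Csf1 product and itself 1 of the monocyte markers, rose from 0.0222, 1.28 and 0.0913 FPKM to 38.4, 29.8 and 27.4 FPKM (log2 fold change 4.58 ± 0.31, limma adjusted p = 0.00018). Tnfrsf1a, the death domain receptor of TNF, rose from 0.0198, 1.03 and 0.0212 to 30.2, 22.6 and 11.1 FPKM (4.01 ± 0.40, limma adjusted p = 0.00076). Il6ra, the ligand-binding chain for IL-6, rose from at most 0.136 FPKM to 14, 9.32 and 7.20 FPKM (3.36 ± 0.22, limma adjusted p = 0.00016), and its partner Il6st (gp130) from 0.646, 1.52 and 0.876 to 11.7, 8.59 and 5.64 FPKM (2.23 ± 0.26, limma adjusted p = 0.00121). Each of these 4 calls held in all 14 alternatives. Il6ra passed the filter only through libraries with the fusion, and Csf1r, Tnfrsf1a and Il6st reached 1 FPKM with NRASG12D in replicate 2 alone. Their being called higher against NRASG12D, here and with both oncogenes, is therefore partly set by the filter. The NRASG12D libraries thus held the ligand Il6 at 28.2 to 35.9 FPKM with hardly any Il6ra, and the NUP98-NSD1 libraries held both.

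Between both oncogenes and NRASG12D alone, 8 of the 16 chains were higher and 4 lower (24.2% and 14.1% of all tested genes were), with a median of 1.67 against 0.23. Csf1r reached 66.8, 158 and 60.8 FPKM (6.00 ± 0.45, limma adjusted p = 0.000183), Tnfrsf1a 53.3, 42.8 and 51.9 FPKM (5.29 ± 0.30, limma adjusted p = 7.05e-05) and Il6ra 29.6, 16.8 and 17.6 FPKM (4.35 ± 0.24, limma adjusted p = 7.01e-05). Csf2rb2, the IL-3-specific beta chain of the mouse, fell from 888, 841 and 945 to 34.3, 107 and 42.5 FPKM (-4.02 ± 0.40, limma adjusted p = 0.000493), and these 4 calls also held in all 14 alternatives. Between both oncogenes and NUP98-NSD1 alone, 3 of 16 were higher and 2 lower (2.3% and 6.31% of all tested genes were), with a median of 0.54 against -0.06. After median-ratio scaling 2 were higher and 1 lower, and after quantile normalization 1 was higher and 2 lower, so that the balance depended on the scaling. Csf2rb2 was lower there (-2.97 ± 0.42, adjusted p = 0.011 by limma), as was Csf2rb, the shared beta chain for GM-CSF, IL-3 and IL-5 (-1.55 ± 0.28, limma adjusted p = 0.0217). These are near-identical paralogues whose reads may be split. Il13ra1 was higher at 11.9, 6.05 and 12.1 FPKM against 2.82, 0.975 and 1.94 (1.92 ± 0.34, limma adjusted p = 0.0214), and so was Tnfrsf1b, the other TNF receptor (1.17 ± 0.28, limma adjusted p = 0.0487). The calls of this last comparison leaned on single libraries. Csf2rb2 lost its call without NUP98-NSD1 replicate 3 (0.0535), Il13ra1 without NUP98-NSD1 replicate 2 or 3 or NUP98-NSD1+NRASG12D replicate 3 (0.0729 to 0.0865), Csf2rb without any NUP98-NSD1 replicate or NUP98-NSD1+NRASG12D replicate 3 (0.0635 to 0.092) and Tnfrsf1b in every such fit except that without NUP98-NSD1+NRASG12D replicate 1 (0.106 to 0.175). Scaling also ended the calls of Tnfrsf1b (0.0742 after median-ratio scaling and 0.0626 after quantile normalization) and Csf2rb (0.0575 after median-ratio scaling). Where Il6 was lowest, with both oncogenes, Il6ra had its highest mean, though it was not called between the fusion groups (limma adjusted p = 0.0937). Il4 and Il13 were lowest where the mean of Il13ra1 was highest. Il4ra, the chain that IL-4 and IL-13 share, ran against Il13ra1, with means of 310, 131 and 97.3 FPKM over the 3 groups. It was called lower in both fusion groups than with NRASG12D (limma adjusted p = 0.000321 and 0.00347). A link between ligand and receptor levels was not tested. Il13ra2, a decoy chain and the only 1 not tested, stayed below 0.024 FPKM in all libraries.

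**Figure D5:**
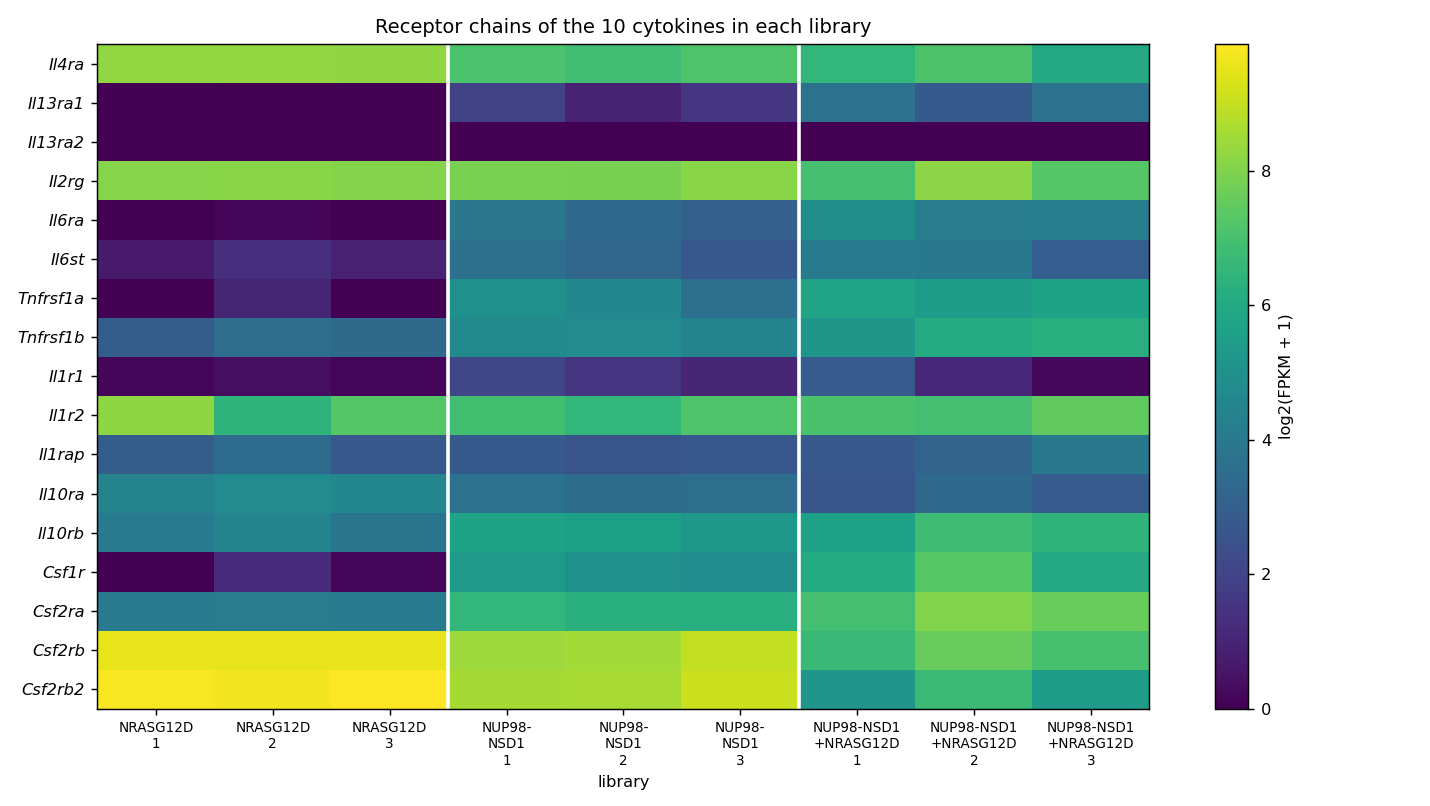
Level of 17 receptor and signal chains of the 10 cytokines as log2(FPKM + 1), from dark to bright, 1 column per library. Il6ra, Tnfrsf1a, Csf1r and Il13ra1 are dark in the 3 NRASG12D libraries and brighter in the 6 libraries with the fusion, while Csf2rb and Csf2rb2 fade from left to right.

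The 12 genes for processing and release of IL-1 and TNF were all tested. With NUP98-NSD1 5 were higher and 1 lower than with NRASG12D (median 0.31 against 0.27), with both oncogenes 6 were higher and 6 not called (0.98 against 0.23), and between the fusion groups 2 were higher and 10 not called (0.65 against -0.06). Of all tested genes 42.2%, 24.2% and 2.3% were called higher and 9.98%, 14.1% and 6.31% lower in turn, so that the first counts lie near the share over all genes. After median-ratio scaling the first counts were 4 higher and 2 lower, and the second 4 higher. Gsdmd, the pore protein through which cleaved IL-1 beta leaves the cell, read 5.47, 5.71 and 4.58 FPKM with NRASG12D, 25, 21.1 and 15.3 with NUP98-NSD1 and 36.3, 49.7 and 65.2 with both, and rose at each step (log2 fold changes 1.76 ± 0.18, 3.00 ± 0.23 and 1.25 ± 0.27, limma adjusted p = 0.000794, 0.000196 and 0.0371). Nlrc4, an inflammasome sensor, was at most 0.0714 FPKM with NRASG12D and rose to 0.512 to 1.47 and to 2.87 to 4.06 FPKM (limma adjusted p = 0.0081, 0.000253 and, between the fusion groups, 0.0345). The inflammasome adaptor Pycard was higher in both fusion groups than in NRASG12D (0.88 ± 0.16 and 2.05 ± 0.31, limma adjusted p = 0.00498 and 0.00268), Casp4 was higher with both oncogenes (1.15 ± 0.27, limma adjusted p = 0.0169), and the calpain gene Capn2 was lower with NUP98-NSD1 (-1.11 ± 0.20, limma adjusted p = 0.00472). Casp4 lost its call without NRASG12D replicate 1 or 3 (0.061 to 0.0671), Nlrc4 with NUP98-NSD1 after quantile normalization (0.249), and between the fusion groups Gsdmd and Nlrc4 were called in only 1 of the 6 fits without a library, that without NUP98-NSD1+NRASG12D replicate 1 (0.0646 to 0.132 in the others).

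All 10 genes of AU-rich mRNA decay and stability were tested, with 6 higher and 1 lower for NUP98-NSD1 against NRASG12D (median 0.34 against 0.27, but 1 higher and 1 lower after median-ratio scaling or quantile normalization), 2 higher and 1 lower for both against NRASG12D (0.53 against 0.23, but 1 higher and 2 lower after median-ratio scaling) and 0 called by limma between the fusion groups, where 1 gene, Zfp36l2, had an unadjusted p under 0.05. Of all tested genes 42.2%, 24.2% and 2.3% were called higher and 9.98%, 14.1% and 6.31% lower in turn. Zfp36, the decay factor of Tnf and other AU-rich mRNAs, read 7.60, 10.3 and 6.47 FPKM with NRASG12D, 138, 90.5 and 75.3 with NUP98-NSD1 and 67.6, 78.7 and 46.2 with both (3.46 ± 0.24 and 2.82 ± 0.25 against NRASG12D, limma adjusted p = 0.000202 and 0.000315). The fusion groups overlapped for Zfp36, with a difference of -0.64 ± 0.29 (limma adjusted p = 0.235). Auh, an AU-binding enzyme, was higher in both fusion groups (0.46 ± 0.10 and 0.57 ± 0.18, limma adjusted p = 0.00976 and 0.0421), and with NUP98-NSD1 Khsrp was higher and Rc3h2, a roquin gene, lower (0.53 ± 0.13 and -0.53 ± 0.16, limma adjusted p = 0.0133 and 0.0285). Both Auh calls and the Khsrp call were lost after median-ratio scaling (0.195, 0.0652 and 0.131). The second Auh call was also lost without any NRASG12D replicate or NUP98-NSD1+NRASG12D replicate 3 (0.0585 to 0.132), that of Khsrp without NUP98-NSD1 replicate 1 or 2 (0.0526 to 0.0542), and that of Rc3h2 without replicate 1 or 2 of either group (0.0607 to 0.092).

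Of 28 transcription factor genes that act on cytokine promoters, 27 were tested, all but Irf4. In the comparisons that follow, 42.2%, 24.2% and 2.3% of all tested genes were called higher in turn and 9.98%, 14.1% and 6.31% lower. Against NRASG12D, 10 were higher and 4 lower with NUP98-NSD1 (median 0.17 against 0.27, and 9 in each direction after median-ratio scaling) and 9 higher and 12 lower with both oncogenes (-0.24 against 0.23), and between the fusion groups 1 was higher and 9 lower (-0.59 against -0.06, with 3 higher and 9 lower after median-ratio scaling). The AP-1 gene Fos read 9.14, 7.85 and 5.03 FPKM with NRASG12D, 190, 133 and 97.8 with NUP98-NSD1 and 73.4, 52.0 and 39.1 with both, and was higher with NUP98-NSD1 than with NRASG12D by 4.06 ± 0.27 (limma adjusted p = 0.000176). Junb read 399, 334 and 322, then 996, 748 and 744, then 225, 202 and 262 FPKM, and with Jun it was lower with both oncogenes than with the fusion alone (-1.84 ± 0.21 and -1.78 ± 0.18, limma adjusted p = 0.0077 and 0.00566). Fos and Junb, like Tnf, read higher in every NUP98-NSD1 library than in the other libraries.

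Gata1 and Gata2, factors of the mast cell lineage, the second also counted among the mast cell markers, were lower with both oncogenes. Gata2 read 383, 492 and 450, then 304, 349 and 480, then 25.6, 59.5 and 6.47 FPKM (-4.26 ± 0.68 against NRASG12D and -4.02 ± 0.70 against NUP98-NSD1, limma adjusted p = 0.00331 and 0.02), and Gata1 fell by 4.4 and 3.72 on the log2 scale (limma adjusted p = 0.00162 and 0.016). Against NUP98-NSD1 both calls were lost without any 1 of its replicates (0.0521 to 0.0888). The myeloid factor genes Cebpd and Cebpa rose with the fusion, Cebpd from 0.519, 1.20 and 0.740 FPKM to 13.2, 10.4 and 5.44 and to 24.7, 20.3 and 21.0 FPKM (2.5 ± 0.30 and 3.67 ± 0.20, limma adjusted p = 0.00126 and 6.19e-05), and Cebpa by 2.2 ± 0.41 with NUP98-NSD1 (limma adjusted p = 0.00513). Nfkbia, the NF-kB inhibitor and target, rose by 2.05 ± 0.33 and 3.72 ± 0.49 (limma adjusted p = 0.0031 and 0.00145) to 100, 176 and 402 FPKM with both oncogenes. Between both oncogenes and NRASG12D alone, Gata2 thus moved in the direction of Il4, Il13 and Il6, and Cebpd and Nfkbia in that of Il1rn. Within the group with both oncogenes Nfkbia kept the order of Il1rn, but Cebpd was highest in replicate 1, where Il1rn was lowest. Gata2 overlapped between the groups with a single oncogene, where Il4 did not. A link between these factors and the cytokine genes was not tested.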

How the data were processed

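The authors sequenced RNA of the 9 libraries as paired 50-base reads and deposited 1 gene table per library with FPKM values, made per the submitters' processing notes in the labels with STAR 2.7.2a and Cufflinks 2.2.1 on GRCm38.p6. Strandedness and the treatment of reads with several matches are not given in the sources used here. Rows that share an identifier (55330 rows, 55274 identifiers) were summed. Coordinates of the members equal GENCODE M21.

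From these values log2(FPKM + 1) was taken for genes with 1 FPKM or more in 3 or more of 9 libraries, and each pair of groups was fitted on its 6 libraries with limma 3.58.1 (R 4.3.3, trended variance), and p-values were adjusted over the tested genes after Benjamini and Hochberg, with a threshold of 0.05. A call means an adjusted p under that threshold. Genes near 0 in a group passed the filter only through the other groups, so that their calls against that group are not independent of the filter. Fold changes on this scale understate those of low genes, and ratios of mean FPKM are given beside them. The whole-step spacing of low FPKM values (83.2% to 86.3% within 0.1 of a step) gave the depth and the FPKM that 3 fragments are worth, which cover counting error only. The fit was tested on simulated data.

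The 10 members, the gene and marker lists and the tests were chosen with earlier results of these data known. Named list genes are the 4 with the largest called, non-overlapping change per list and comparison, and genes like a member are the 2 with the highest Pearson correlation. Il4ra and Csf2ra are given besides these and are not in the counts of named list genes. Alternatives were another pseudocount, filters, scalings, weights, a joint fit, a replicate block and leaving out each library.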

Additional observations from a re-analysis of the deposited data

How the results depend on the processing

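Of 294 refitted member fold changes (21 differences, 14 alternatives each), 281 kept their direction, 39 lost a call and 9 gained one, and none of the 13 that changed sign was a call. After median-ratio scaling Csf1, Il13 and Il6 turned to -0.13, -0.21 and -0.14 between NUP98-NSD1 and NRASG12D, and after quantile normalization to -0.14, -0.33 and -0.12. Il13 turned to -0.07, -0.06 and -0.02 there without NRASG12D replicate 2 and without NUP98-NSD1 replicate 1 or 2 (range without a library -0.07 to 0.19). Tnf turned to 0.11 between both oncogenes and NRASG12D without NUP98-NSD1+NRASG12D replicate 1 (range -0.76 to 0.11). Il1b between the fusion groups turned to -0.51 with array weights, -0.16 without NUP98-NSD1 replicate 3 and -0.30 without NUP98-NSD1+NRASG12D replicate 2 (range -0.30 to 0.55). The cause was not tested.

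Without a filter on low values 2 members were called between both oncogenes and NRASG12D and 0 between the fusion groups, where limma gave 5 members an unadjusted p under 0.05. Between NUP98-NSD1 and NRASG12D 5 were called without it, gaining Il10 (0.0121) and Il1a (0.0259) and losing Il4 (0.0565). Between the fusion groups 1 member was called with a pseudocount of 0.1, with the filter at FPKM 0.1 and after either scaling, and 6 with array weights. Over all genes, 152 were called there without a filter, 2251 in a joint fit of 9 libraries and 3500 with array weights, and 3065 between NUP98-NSD1 and NRASG12D in the joint fit. Leaving out 1 library gave 3 to 4, 2 to 5 and 0 to 4 called members in the 3 comparisons, and 4736 to 7948, 2941 to 6327 and 283 to 2509 called genes. In the fit with 0 members called, that without NUP98-NSD1 replicate 3, 5 had an unadjusted p under 0.05 (limma).

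Samples with the same replicate number did not deviate together (correlations -0.177 to 0.16). With a replicate block 4, 6 and 2 members were called, as without it, and 6864, 4531 and 801 genes. Of 52 fold changes of named list genes, none changed direction under any alternative, and 17 of 20, 16 of 18 and 4 of 14 were called whichever library was left out.

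Few fragments limit Csf2 in all libraries, Il10 in all but NUP98-NSD1+NRASG12D replicate 2 (about 9 fragments) and Il1a in NRASG12D. Il1rn in NRASG12D replicates 1 and 3 (0 and about 4 fragments) and Il1b in NRASG12D replicates 2 and 3 (about 5 and 6) also rested on few. So did Il4 and Il13 in NUP98-NSD1+NRASG12D replicate 1 (about 8 and 6) and replicate 3 (0 each).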

Other observations

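Of 36 other interleukin and haematopoietic cytokine genes, 33 were in the tables and 12 were tested. In the comparisons that follow, 42.2%, 24.2% and 2.3% of all tested genes were called higher in turn and 9.98%, 14.1% and 6.31% lower. With NUP98-NSD1 3 were higher and 1 lower than with NRASG12D (median log2 fold change 0.21, against 0.27 over all genes, with 1 in each direction after quantile normalization), with both oncogenes 3 were higher and 6 lower (-0.54 against 0.23), and between the fusion groups 1 was higher and 6 lower (-0.66 against -0.06). Lif, a cytokine that signals through gp130, read 15.4, 13.6 and 11.6 FPKM in NRASG12D, 17.2, 16.0 and 14.9 in NUP98-NSD1 and 0.437, 2.2 and 0.573 in NUP98-NSD1+NRASG12D. It fell by 2.90 and 3.14 on the log2 scale with both oncogenes (limma adjusted p = 0.000777 against NRASG12D and 0.00591 against NUP98-NSD1). Osm, another such cytokine, read 67.3, 56.5 and 51.2 FPKM with NUP98-NSD1 and 16.2, 19.0 and 22.3 with both (-1.56 ± 0.18, limma adjusted p = 0.00772), and Flt3l, the ligand of the Flt3 receptor, fell in steps from 89.8, 83.2 and 101 FPKM with NRASG12D through 29.7, 36.1 and 45.8 to 5.59, 14.8 and 9.15 FPKM with both (limma adjusted p = 0.00139 and 0.000451 against NRASG12D and 0.0214 between the fusion groups).

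Il12a and Il18 ran the other way. Il18, which like Il1b is matured by inflammasomes, read 0.278, 0.639 and 0.0599 FPKM with NRASG12D, 1.52, 1.55 and 2.57 with NUP98-NSD1 and 7.41, 8.65 and 4.88 with both (log2 fold changes against NRASG12D 1.12 ± 0.22 and 2.58 ± 0.26, limma adjusted p = 0.00564 and 0.000508). Il12a read 0.459 to 0.780, 3.13 to 6.37 and 7.55 to 59.0 FPKM (1.85 ± 0.23 and 3.33 ± 0.72, limma adjusted p = 0.00146 and 0.0114). Il7 was lower with both oncogenes than with NUP98-NSD1 alone (-1.92 ± 0.28, limma adjusted p = 0.012), a call lost without NUP98-NSD1 replicate 2 or 3 (0.0517 to 0.0535). Flt3l lost its call between the fusion groups without any NUP98-NSD1 replicate or NUP98-NSD1+NRASG12D replicate 3 (0.0547 to 0.0943) and after median-ratio scaling (0.0534). Il27 was higher with NUP98-NSD1 than with NRASG12D (0.67 ± 0.19, limma adjusted p = 0.0213), at no more than 1.15 FPKM, a call lost without NRASG12D replicate 2 or 3 or NUP98-NSD1 replicate 1 (0.0581 to 0.069) and after quantile normalization (0.979). With both oncogenes it read 1.17, 2.27 and 2.2 FPKM, higher than with NRASG12D by 1.35 ± 0.21 (limma adjusted p = 0.00315).

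The remaining marker lists are given as summed FPKM per library, as the range over each group and with no test. The 2 basophil markers summed to 17.4 to 53.4 with NRASG12D, 693 to 1441 with NUP98-NSD1 and 22.6 to 437 with both oncogenes, and the 5 markers of granulocyte and monocyte progenitors to 29.2 to 34.9, 1294 to 5577 and 3916 to 13132. The 4 eosinophil markers summed to 1.98 to 2.45, 8.77 to 37.9 and 5.22 to 221, the 4 erythroid markers to 1.5 to 4.01, 17.6 to 52 and 2.92 to 30.1, and the 3 megakaryocyte markers to 479 to 563, 241 to 299 and 75.7 to 1209. Of the megakaryocyte markers, Itga2b read 479 to 558 FPKM with NRASG12D and 4.43 to 50.1 with both oncogenes, while Pf4 read at most 3.96 and then 62.8 to 1157. The 4 fibroblast markers stayed at or below 4.44 in sum. The 3 endothelial markers summed to 37.4 to 106, nearly all of it Pecam1 (35.6 to 106). Cdh5 stayed at or below 0.087 FPKM and Kdr at or below 3.16 FPKM in every library. In NUP98-NSD1+NRASG12D the highest basophil, eosinophil, erythroid and megakaryocyte sums all stood in replicate 2. That library also had the most Il4, Il13, Il6, Il1a, Il1b, Tnf, Il10 and Csf1 of its group.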
